A study of Mus musculus with 16 samples.

Results

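A set of 8 immunoglobulin-like surface proteins that hold back immune cells, or that engage such receptors, were followed across CD8 T-cell subsets of leukemic mice. Their genes are Lilrb4a, Cd200r1, Cd101, Lair1, Treml2, Vsir, Cd200 and Cd274, 8 of the 22180 genes measured. Each is represented by the probe set annotated with that symbol alone, chosen by its mean over the 16 arrays where a gene has several; no difference between subsets entered that rule. Every one of the 8 had exactly 1 such probe set. The arrays came from splenic CD8 T cells (Lin-, TCRb+) of female C57BL/6 mice that had received CLL cells of Eµ-TCL1 mice 6 weeks earlier. In Eµ-TCL1 mice an immunoglobulin enhancer drives the TCL1 transgene in B cells, which gives rise to a disease like human chronic lymphocytic leukemia (CLL), a B-cell cancer. Flow cytometry gave 4 subsets with 4 arrays each: PD-1hi effectors (CD127low, CD44int-hi, PD-1hi), PD-1int effectors (CD127low, CD44int-hi, PD-1int), memory cells (CD127hi, CD44hi) and naive cells (CD127hi, CD44low). All 4 subsets were exposed to leukemia, arrays of leukemia-free mice were not analysed here, and the labels do not say whether arrays of a subset came from separate mice. The sample titles carry the same names, AT1 to AT4, in every subset, and whether these stand for mice that gave all 4 subsets is not stated. The p-values therefore cover the spread among these arrays, which may be technical.

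Inhibitory receptors of this kind carry an extracellular immunoglobulin-like domain and often a cytoplasmic tyrosine motif (ITIM), which, once phosphorylated, recruits the phosphatases SHP-1, SHP-2 or SHIP-1 and dampens activating signals. PD-L1, the product of Cd274, does this from the other side, as the ligand of PD-1. CD200 is likewise a ligand, and its receptor CD200R1 has no ITIM but signals through DOK adaptors and RasGAP. In T cells that meet antigen for long periods, several of these proteins accumulate together, while VISTA (Vsir) is also present on naive T cells, where it helps to maintain quiescence.

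Values are the deposited log2 expression values of the probe sets, which ran from 2.35 to 14.13 in the whole file. A difference of 1 is 2-fold, and levels are compared only between subsets of 1 gene, never between genes, because probe sets differ in brightness. No detection calls came with the values; 10% of genes had a mean below 4.41, so values near that level may hold no signal of the gene. Differences are given ± the standard error of a limma fit to all 16 arrays, levels as mean ± SD (n = 4 arrays), and a gene is said to rise or fall only where its limma adjusted p (Benjamini-Hochberg, over all 22180 genes) is under 0.05. The 8 genes were chosen with earlier results of these arrays known, so these p-values describe the genes and are not independent evidence. RNA of a sorted subset is a bulk measure: fewer cells that express a gene and less of its RNA per cell cannot be told apart.

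For PD-1 the array data bore the sort out: Pdcd1, which encodes PD-1, averaged 11.40 ± 0.15 in PD-1hi, 10.12 ± 0.31 in PD-1int, 7.10 ± 0.10 in memory and 6.80 ± 0.30 in naive cells. Cd8a, a defining chain of the CD8 co-receptor, lay at 11.46 ± 0.18, 11.42 ± 0.18, 11.65 ± 0.06 and 11.65 ± 0.07 in the same order. Il7r, which encodes CD127, averaged 4.91 ± 0.54, 7.49 ± 0.33, 12.57 ± 0.08 and 12.97 ± 0.07. Cd44 averaged 7.93 ± 0.12, 8.69 ± 0.20, 8.99 ± 0.13 and 6.07 ± 0.12. The effector subsets share their CD127 and CD44 gates, yet both genes were lower in PD-1hi than in PD-1int. The differences were -2.58 ± 0.20 for Il7r (limma adjusted p = 8.78e-07) and -0.76 ± 0.10 for Cd44 (limma adjusted p = 2.41e-04). The median log2 value of an array ranged from 6.39 to 6.49.

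The 8 genes divided by direction. In PD-1hi against naive cells 5 rose and 3 fell, where 13.4% of all genes were higher and 13.7% lower. PD-1int against naive gave 3 rises and 3 falls (all genes: 11.9% higher, 10.8% lower), and memory against naive gave 2 and 2 (6.7% and 5.02%). Against memory cells, 4 rose and 2 fell in PD-1hi (10.8% and 11.1%), and 5 rose and 1 fell in PD-1int (8.49% and 7.66%). Between the effectors, PD-1hi over PD-1int, 3 rose and 2 fell, where 1.37% of all genes were higher and 1.94% lower. That last background, 734 genes in all, was 470 without PD-1int replicate 1 and 474 without PD-1hi replicate 4. The median log2 difference of the 8 genes was 1.02 in PD-1hi against naive (-0.01 over all genes), 0.53 in PD-1int against naive (-0.03) and 0.04 for PD-1hi over PD-1int (0.01). All comparisons that share a subset share its arrays.

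**Figure D1:**
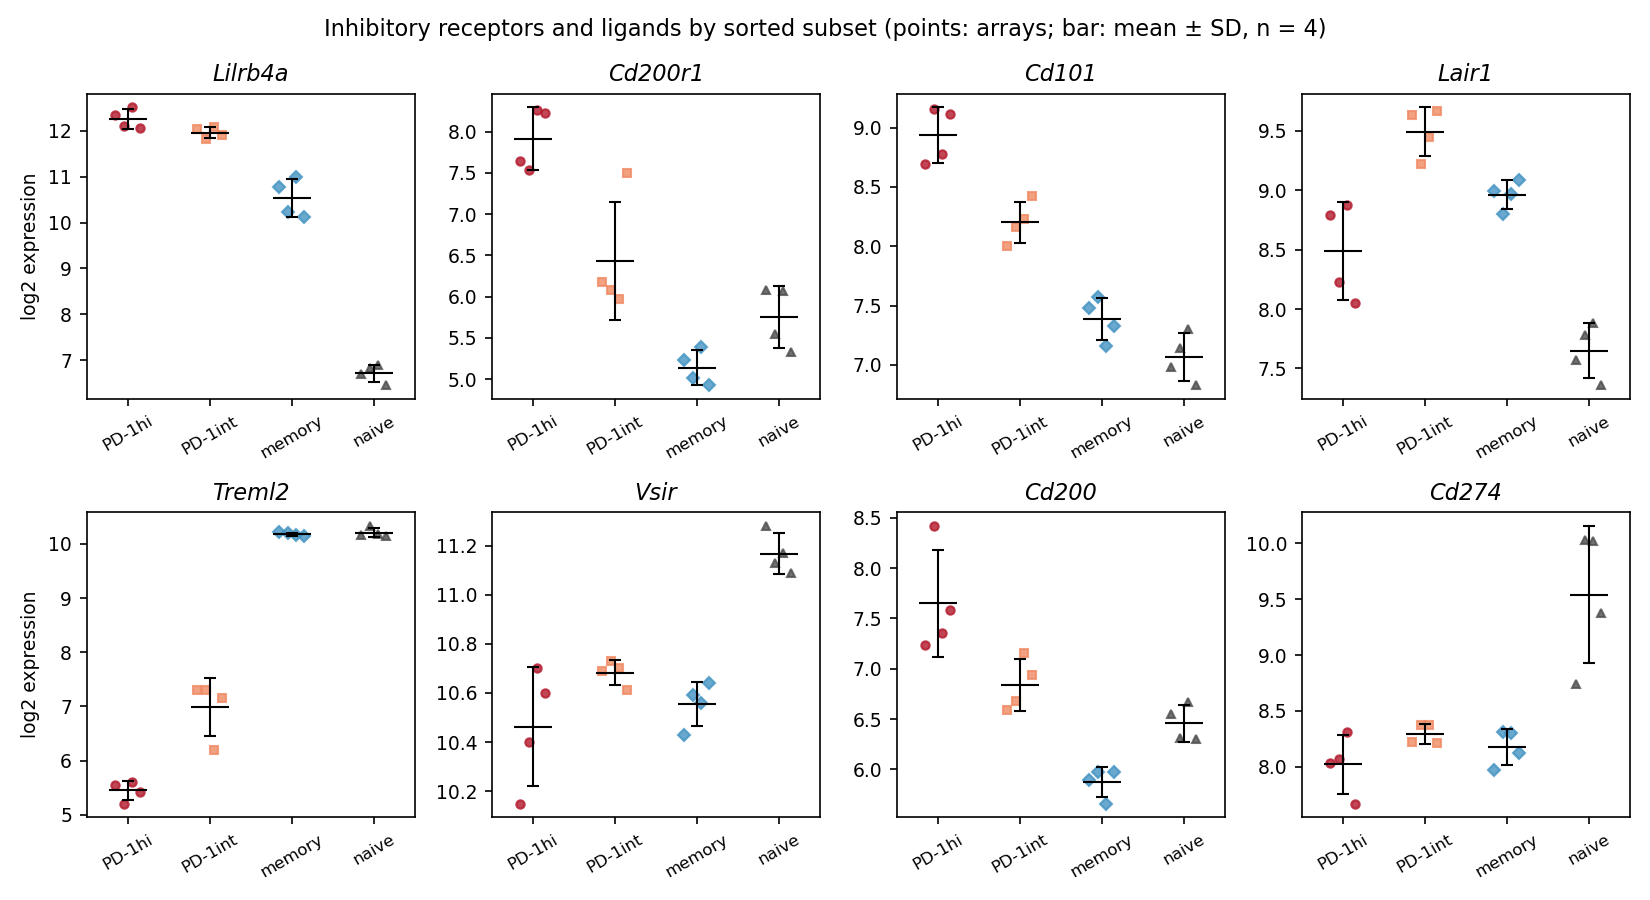
Log2 expression (vertical axes, a scale of its own in each panel) of the 8 genes in PD-1hi, PD-1int, memory and naive cells. Points are single arrays, long bars the mean and whiskers the SD of 4 arrays. Lilrb4a is highest in both effector subsets, Treml2 is lowest there, and Cd274 and Vsir stand highest in naive cells.

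Lilrb4a, which encodes an ITIM-bearing receptor known from myeloid and mast cells and from activated lymphocytes, had the widest range of the 8. Its values were 12.34, 12.10, 12.51 and 12.06 in PD-1hi replicates 1 to 4, and 12.04, 11.82, 12.09 and 11.90 in PD-1int. Memory arrays gave 10.78, 10.23, 10.99 and 10.13, and naive arrays 6.70, 6.82, 6.88 and 6.46. No memory array reached an effector array and no naive array reached a memory array, while the effector subsets overlapped. Against naive, Lilrb4a rose by 5.54 ± 0.16 in PD-1hi (46.4-fold, limma adjusted p = 2.66e-14), by 5.24 ± 0.16 in PD-1int and by 3.82 ± 0.16 in memory (14.1-fold, limma adjusted p = 1.26e-11). The effectors stood above memory as well, by 1.72 ± 0.16 in PD-1hi and 1.43 ± 0.16 in PD-1int. PD-1hi and PD-1int were not separated (0.29 ± 0.16, limma adjusted p = 0.46), so the order was PD-1hi and PD-1int together, then memory, then naive.

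Lilrb4a lies next to the related gene Lilr4b (gp49a), and a second probe set is annotated with both symbols. That shared probe set averaged 8.98 over the 16 arrays and was left out by the rule. It gave 10.76, 10.98, 11.46 and 10.62 in PD-1hi and 10.81, 10.95, 11.05 and 10.62 in PD-1int. It gave 9.42, 9.22, 9.87 and 9.37 in memory, and 4.60, 4.77, 4.32 and 4.87 in naive cells. In its place, the log2 difference from naive was 6.32 in PD-1hi, 6.22 in PD-1int and 4.83 in memory, with 0.096 between PD-1hi and PD-1int, so the order of the subsets was unchanged. Whether RNA of Lilr4b adds to the Lilrb4a probe set was not tested, and Lilr4b has no probe set of its own here.

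Cd200r1 encodes the receptor for CD200. PD-1hi arrays read 7.65, 7.53, 8.26 and 8.22 and PD-1int arrays 6.18, 6.08, 5.97 and 7.50. Memory arrays read 5.23, 5.01, 5.39 and 4.93, and naive arrays 6.08, 5.55, 6.07 and 5.33. PD-1hi stood above every other array, although PD-1int replicate 4 came just below its lowest value, and memory lay closest to the dim end of the scale. Cd200r1 rose in PD-1hi by 2.16 ± 0.28 against naive (4.47-fold, limma adjusted p = 6.27e-06), by 2.78 ± 0.28 against memory and by 1.48 ± 0.28 against PD-1int (limma adjusted p = 0.00488). Without PD-1int replicate 4 that last difference was 1.84 (limma adjusted p = 5.53e-05). PD-1int exceeded memory by 1.29 ± 0.28 (limma adjusted p = 0.00266), and by 0.94 without its replicate 4. The neighbours memory and naive (-0.62 ± 0.28 for memory, limma adjusted p = 0.194) and PD-1int and naive (0.68 ± 0.28, limma adjusted p = 0.0947) did not pass, and the PD-1int difference from naive was 0.32 without PD-1int replicate 4 (limma adjusted p = 0.331). The memory call appeared when PD-1int replicate 4 was left out (limma adjusted p = 0.0408) or when the 8 memory and naive arrays were fitted alone (0.0407).

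The 3 genes that follow Cd200r1 on chromosome 16, in the order Cd200r4, Cd200r2 and Cd200r3, encode paired receptors of the same family, of which CD200R4 and CD200R3 are activating forms in the mouse. Cd200r4 read 9.16, 9.42, 9.14 and 9.27 in PD-1hi, 9.03, 8.78, 8.85 and 8.97 in PD-1int, 7.40, 7.74, 7.67 and 7.92 in memory, and 6.89, 7.20, 7.33 and 7.47 in naive cells. It rose against naive in PD-1hi (2.03 ± 0.12, limma adjusted p = 4.09e-10), PD-1int (1.69 ± 0.12) and memory (0.46 ± 0.12, limma adjusted p = 0.0174). Unlike Cd200r1, it did not pass between PD-1hi and PD-1int (0.34 ± 0.12, limma adjusted p = 0.174); the difference between the genes themselves was not tested. Cd200r2 rose in PD-1hi against naive (0.56 ± 0.17), with means of 5.29 ± 0.20 in PD-1hi and 4.72 ± 0.18 in naive cells. Cd200r3 passed in no comparison and stayed between 5.31 and 5.49 on average.

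**Figure D2:**
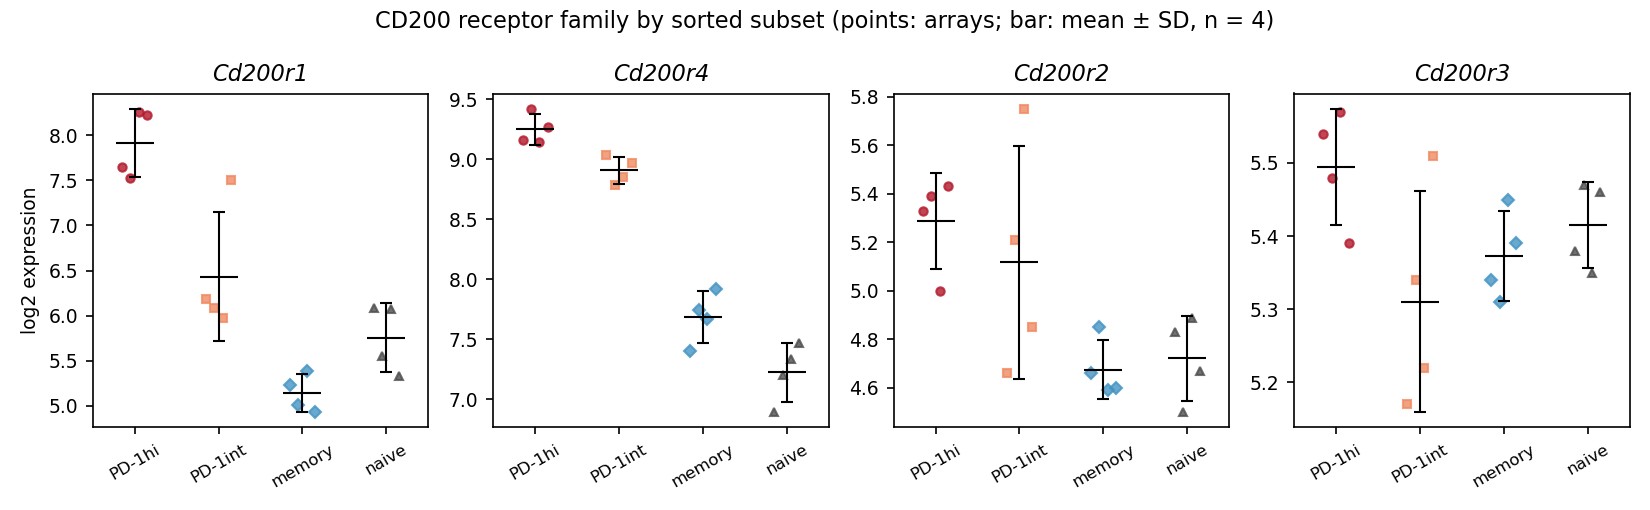
Log2 expression (vertical axes, a scale of its own in each panel) of Cd200r1 and its 3 neighbours on chromosome 16 in PD-1hi, PD-1int, memory and naive cells. Points are arrays, bars mean and SD of 4. Cd200r1 is highest in PD-1hi and has 1 PD-1int array at 7.50, while Cd200r4 is high in both effector subsets.

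Cd200 encodes the ligand of this receptor, a protein of B cells, endothelium and activated T cells. It read 7.24, 8.42, 7.36 and 7.58 in PD-1hi, 6.60, 6.68, 7.16 and 6.94 in PD-1int, 5.89, 5.97, 5.66 and 5.97 in memory, and 6.55, 6.30, 6.67 and 6.30 in naive cells. Every PD-1hi array lay above every other array, and every memory array lay below every other array. Cd200 thus ran in the same order of subset means as its receptor gene. PD-1hi exceeded memory by 1.78 ± 0.20 (limma adjusted p = 1.74e-06) and naive by 1.19 ± 0.20 (limma adjusted p = 1e-04), and PD-1int exceeded memory by 0.97 ± 0.20 (limma adjusted p = 0.00161). The difference from PD-1int (0.80 ± 0.20, limma adjusted p = 0.0285) no longer passed without PD-1hi replicate 4 (limma adjusted p = 0.0598) or PD-1int replicate 1 (0.102), 2 (0.0794) or 4 (0.053), and in a fit of those 8 arrays alone (0.115). Its size in these 5 fits was 0.72 to 0.84, so the p moved and the difference hardly did. Memory did not pass against naive (-0.58 ± 0.20, limma adjusted p = 0.0646), but did when PD-1hi replicate 2, the highest Cd200 array, was left out (limma adjusted p = 0.00521). PD-1int against naive (0.39 ± 0.20, limma adjusted p = 0.186) also passed without that array (limma adjusted p = 0.0349).

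Cd101, an immunoglobulin-like receptor used in mouse chronic infection to mark late exhausted CD8 T cells, increased stepwise. PD-1hi arrays lay at 8.69, 9.16, 8.78 and 9.11, PD-1int arrays at 8.0, 8.16, 8.23 and 8.42, memory arrays at 7.48, 7.57, 7.16 and 7.33, and naive arrays at 6.98, 7.14, 7.30 and 6.83. No PD-1hi array overlapped PD-1int, and no PD-1int array overlapped memory. Cd101 rose in PD-1hi by 1.87 ± 0.13 against naive (3.66-fold, limma adjusted p = 2.67e-09) and by 0.73 ± 0.13 against PD-1int (limma adjusted p = 0.00336), and in PD-1int by 0.82 ± 0.13 against memory. Memory and naive overlapped (0.32 ± 0.13, limma adjusted p = 0.14). None of these calls changed in any alternative fit.

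Lair1 encodes LAIR-1, an ITIM-bearing receptor for collagens that is present on most leukocytes. It peaked in PD-1int rather than PD-1hi. PD-1hi arrays gave 8.79, 8.23, 8.88 and 8.05, PD-1int arrays 9.63, 9.22, 9.44 and 9.67, memory arrays 8.99, 8.80, 8.97 and 9.09, and naive arrays 7.57, 7.78, 7.88 and 7.36. All naive arrays lay below all others, and PD-1hi overlapped memory. Relative to naive, Lair1 rose in PD-1int (1.84 ± 0.16, limma adjusted p = 1.08e-07), memory (1.32 ± 0.16) and PD-1hi (0.84 ± 0.16, limma adjusted p = 6.13e-04). It fell in PD-1hi against PD-1int (-1.0 ± 0.16, limma adjusted p = 0.00157), a call kept in every alternative fit.

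The 2 smaller Lair1 steps lay near the threshold. Against memory, the difference of PD-1hi (-0.48 ± 0.16, limma adjusted p = 0.0474) no longer passed in 10 of the 16 fits that left out 1 array: PD-1hi replicate 2 or 4, PD-1int 1, 3 or 4, memory 1, 3 or 4, and naive 1 or 2. The highest limma adjusted p was 0.178, without PD-1hi replicate 4, where the difference was -0.33. The difference of PD-1int from memory (0.53 ± 0.16, limma adjusted p = 0.0345) no longer passed without PD-1int replicate 1, 3 or 4 or memory replicate 1, 2 or 3, up to a limma adjusted p of 0.105, where it was 0.47.

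Treml2 encodes a TREM-like receptor of B cells, myeloid cells and T cells whose role in T cells, costimulatory or inhibitory, is disputed. PD-1hi arrays read 5.56, 5.21, 5.61 and 5.43 and PD-1int arrays 7.30, 7.30, 6.20 and 7.16. Memory arrays read 10.21, 10.19, 10.16 and 10.15, and naive arrays 10.16, 10.33, 10.18 and 10.14. The memory and naive ranges overlapped almost fully, all effector arrays lay far below them, and PD-1hi lay below PD-1int without overlap. Treml2 fell in PD-1hi by 4.75 on the log2 scale against naive (26.9-fold, limma adjusted p = 6.76e-13), and the fall in PD-1int was -3.21 ± 0.18 (9.25-fold). PD-1hi also stood below PD-1int (-1.54 ± 0.18, limma adjusted p = 4.1e-05), and memory was not separated from naive (-0.02 ± 0.18, limma adjusted p = 0.967).

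Other TREM genes lie beside Treml2 on chromosome 17. Treml4, directly before it, did not pass in PD-1hi against naive (0.17 ± 0.11, limma adjusted p = 0.318) and rose in PD-1int (0.36 ± 0.11, limma adjusted p = 0.0202). Trem1, Trem3, Trem2 and Treml1 had log2 differences of 0.00, 0.13, -0.02 and 0.18 in PD-1hi against naive, none past the threshold (limma adjusted p = 0.984, 0.482, 0.91 and 0.314), and the difference from Treml2 itself was not tested. The gene that directly follows Treml2, B430306N03Rik, fell in PD-1hi against naive (-1.85, limma adjusted p = 1.61e-09) and rose in memory (0.73, limma adjusted p = 4.73e-04).

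Vsir encodes VISTA, a B7-like protein that acts as both ligand and receptor. PD-1hi arrays lay at 10.15, 10.40, 10.70 and 10.60, PD-1int arrays at 10.69, 10.73, 10.70 and 10.61, and memory arrays at 10.43, 10.59, 10.56 and 10.64. Naive arrays, at 11.28, 11.13, 11.17 and 11.09, stood above all of them, and the other 3 subsets overlapped. Vsir fell against naive in PD-1hi (-0.70 ± 0.10, limma adjusted p = 1.9e-05), memory (-0.61 ± 0.10, limma adjusted p = 3.1e-04) and PD-1int (-0.49 ± 0.10, limma adjusted p = 0.00112). The largest of these 3 drops, in PD-1hi, was 1.63-fold. PD-1hi did not differ from PD-1int (-0.22 ± 0.10, limma adjusted p = 0.325) or from memory (-0.09 ± 0.10, limma adjusted p = 0.616) beyond the spread.

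Cd274, the gene for PD-L1, likewise stood highest in naive cells. PD-1hi arrays read 8.03, 8.07, 8.31 and 7.67, PD-1int arrays 8.22, 8.37, 8.37 and 8.21, memory arrays 7.97, 8.31, 8.30 and 8.12, and naive arrays 8.74, 10.03, 10.02 and 9.38. Naive cells were above every other array but spread over more than 1 log2 unit, with replicate 1 lowest. Cd274 fell against naive in PD-1hi (-1.53 ± 0.21, 2.88-fold, limma adjusted p = 1.73e-05), memory (-1.37 ± 0.21) and PD-1int (-1.25 ± 0.21, limma adjusted p = 2.08e-04). Without naive replicate 1 the 3 differences were -1.79, -1.64 and -1.52. Among PD-1hi, PD-1int and memory none of the 3 differences passed (limma adjusted p from 0.642 to 0.814).

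**Figure D3:**
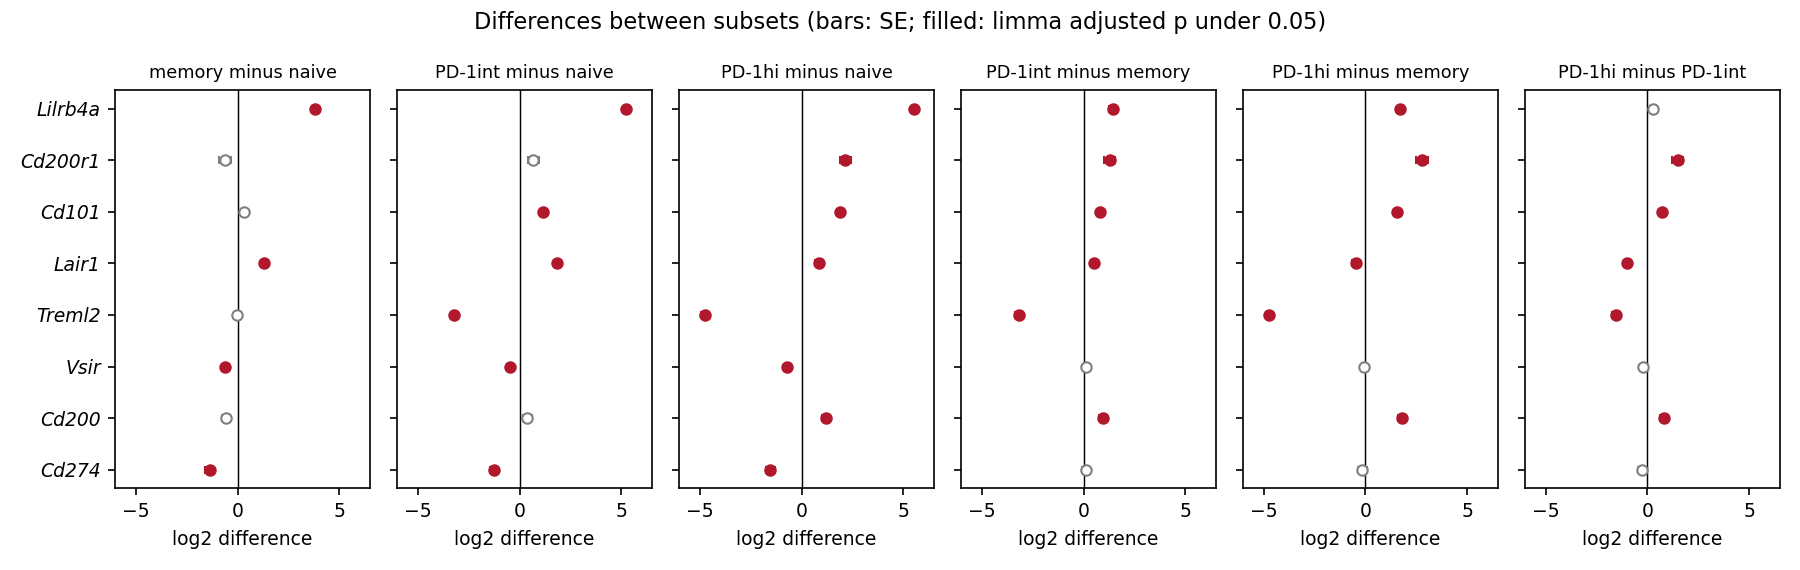
Log2 differences of the 8 genes in 6 comparisons of subsets, as named above each panel, with bars for the standard error of the limma fit (n = 4 arrays per subset). Filled points have a limma adjusted p under 0.05 over all genes. Lilrb4a lies farthest to the right and Treml2 farthest to the left in both effector comparisons with naive.

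Promoters are shown for 2 pairs of genes that moved together: Cd101 and Cd200, highest in PD-1hi, and Vsir and Cd274, highest in naive cells. RefSeq promoter sequences (GRCm38.p6, from 250 bases before to 50 after the gene start) were at hand for 5 of the 8 genes, these 4 and Lair1. Each is printed 5′ to 3′ on the gene's strand, with capitals where 1 of 7 searched motifs matched.
Cd101: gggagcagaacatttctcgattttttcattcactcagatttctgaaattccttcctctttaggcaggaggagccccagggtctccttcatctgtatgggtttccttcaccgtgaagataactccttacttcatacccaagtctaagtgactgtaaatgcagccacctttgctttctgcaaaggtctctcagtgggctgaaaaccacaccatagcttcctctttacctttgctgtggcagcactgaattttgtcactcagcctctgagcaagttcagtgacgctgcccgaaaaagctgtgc
Cd200: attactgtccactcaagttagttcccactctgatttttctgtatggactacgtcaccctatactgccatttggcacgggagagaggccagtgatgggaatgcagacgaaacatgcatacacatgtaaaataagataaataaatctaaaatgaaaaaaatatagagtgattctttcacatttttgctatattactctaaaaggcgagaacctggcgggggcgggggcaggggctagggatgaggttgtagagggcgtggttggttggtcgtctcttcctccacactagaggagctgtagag
Vsir: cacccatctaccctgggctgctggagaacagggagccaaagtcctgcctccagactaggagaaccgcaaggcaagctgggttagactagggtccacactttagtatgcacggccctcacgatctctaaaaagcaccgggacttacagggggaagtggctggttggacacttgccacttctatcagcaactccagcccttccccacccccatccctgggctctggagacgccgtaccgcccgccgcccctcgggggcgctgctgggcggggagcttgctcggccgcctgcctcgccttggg
Cd274: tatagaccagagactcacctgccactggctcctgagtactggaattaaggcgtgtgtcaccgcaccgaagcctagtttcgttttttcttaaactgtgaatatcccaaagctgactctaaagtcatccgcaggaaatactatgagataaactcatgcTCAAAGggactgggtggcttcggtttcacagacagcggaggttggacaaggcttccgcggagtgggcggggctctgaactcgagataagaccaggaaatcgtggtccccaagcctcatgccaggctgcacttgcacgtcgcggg
The windows are chr3:101029504-101029803 (minus strand), chr16:45409004-45409303 (minus), chr10:60346601-60346900 (plus) and chr19:29367188-29367487 (plus), with 47.0%, 45.0%, 63.7% and 52.7% G and C. The motifs were searched on both strands: GAAA and GAAA with 2 bases between them for interferon regulatory factors (held by 3.44% of 32851 RefSeq promoters of this length), TTCNNNGAA for STAT dimers (8.3%), TGANTCA for AP-1 (7.81%), TGGAAA for NFAT (21.4%), GGTGTGA for T-box factors (3.98%), CTTTGA for TCF-1 and LEF-1 (16%) and GGGA and CC with 4 bases between them for NF-kB (20.7%). A single match was found over the 5 promoters, CTTTGA on the minus strand of the Cd274 promoter, read there as TCAAAG at bases 157 to 162. The other 4 promoters held none of the 7 motifs in this window, which says only that these letters are not there.

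Interferon gamma is an inducer of Cd274. Of 8 measured genes of its signalling route and of PD-L1 protein stability, 3 rose and 1 fell in PD-1hi against naive, with a median log2 difference of 0.04. Ifngr2, which encodes the receptor chain that binds JAK2, was the one that fell, to 6.89 ± 0.32 in PD-1hi, 6.77 ± 0.20 in PD-1int and 6.93 ± 0.14 in memory, against 9.74 ± 0.33 in naive cells (PD-1hi: -2.84 ± 0.16, limma adjusted p = 2.04e-10). Its partner chain Ifngr1 did not pass in PD-1hi against naive (-0.02 ± 0.10). Jak2, the kinase of that receptor, rose in PD-1hi against naive (0.46 ± 0.08), as did Cmtm4 (0.74 ± 0.11), which protects PD-L1 from degradation, and Stat3 (0.28 ± 0.09). The related gene Cmtm6 went the other way. It fell in PD-1int against naive (-0.40 ± 0.12, limma adjusted p = 0.0219) and did not pass in PD-1hi (-0.30 ± 0.12, limma adjusted p = 0.0751). Irf1, an inducer of Cd274, fell in memory (-0.67 ± 0.10, limma adjusted p = 1.3e-04) and did not pass in PD-1hi against naive (0.10 ± 0.10). Of these 8 genes 2 rose and 2 fell in PD-1int, and 1 rose and 2 fell in memory. For comparison, 13.4% of all genes rose and 13.7% fell in PD-1hi, 11.9% and 10.8% in PD-1int, and 6.7% and 5.02% in memory.

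Most of 12 genes for phosphatases and adaptors of immune receptors rose in the effectors against naive. Of the 12, 9 rose and 1 fell in PD-1hi against naive (median log2 difference 0.39), 10 rose and 1 fell in PD-1int (0.47), and 7 rose in memory (0.28). The list is not limited to inhibitory receptors, since Tyrobp, Fcer1g and Hcst encode adaptors of activating receptors. Hcst was among the rises in PD-1hi, Tyrobp and Hcst in PD-1int, and Tyrobp, Fcer1g and Hcst in memory. Over all genes, 13.4% rose and 13.7% fell in PD-1hi, 11.9% and 10.8% in PD-1int, and 6.7% and 5.02% in memory. The gene that fell was Ptpn6, which encodes SHP-1. It read 9.49, 9.44, 9.38 and 9.37 in PD-1hi, 10.51, 10.15, 10.21 and 10.27 in PD-1int, 11.75, 11.58, 11.58 and 11.62 in memory, and between 10.80 and 11.07 in naive cells. The 4 subsets did not overlap. Ptpn6 fell in PD-1hi relative to naive (-1.54 ± 0.09, limma adjusted p = 1.53e-10) and to PD-1int (-0.86 ± 0.09, limma adjusted p = 1.11e-05), and it rose in memory against naive (0.67 ± 0.09). Ptpn6 was also the only one of the 12 genes to pass between PD-1hi and PD-1int.

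Ptpn11, which encodes the related phosphatase SHP-2, rose in PD-1hi against naive (0.81 ± 0.10, limma adjusted p = 5.73e-06), with means of 10.31 ± 0.15 in PD-1hi and 9.50 ± 0.20 in naive cells. Inpp5d, the gene for the lipid phosphatase SHIP-1, rose in PD-1hi (0.80 ± 0.07), PD-1int (0.85 ± 0.07) and memory (0.54 ± 0.07). For the route used by CD200R1, Dok1 (0.73 ± 0.12) and Rasa1, which encodes RasGAP (0.73 ± 0.09), rose in PD-1hi, and Dok2 rose in PD-1hi (0.37 ± 0.09), PD-1int (0.49 ± 0.09) and memory (0.56 ± 0.09). The adaptor gene Tyrobp, whose product serves activating paired receptors, rose in memory (0.91 ± 0.15, limma adjusted p = 4.08e-04) and in PD-1int (0.51 ± 0.15) but did not pass in PD-1hi (0.26 ± 0.15).

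**Figure D4:**
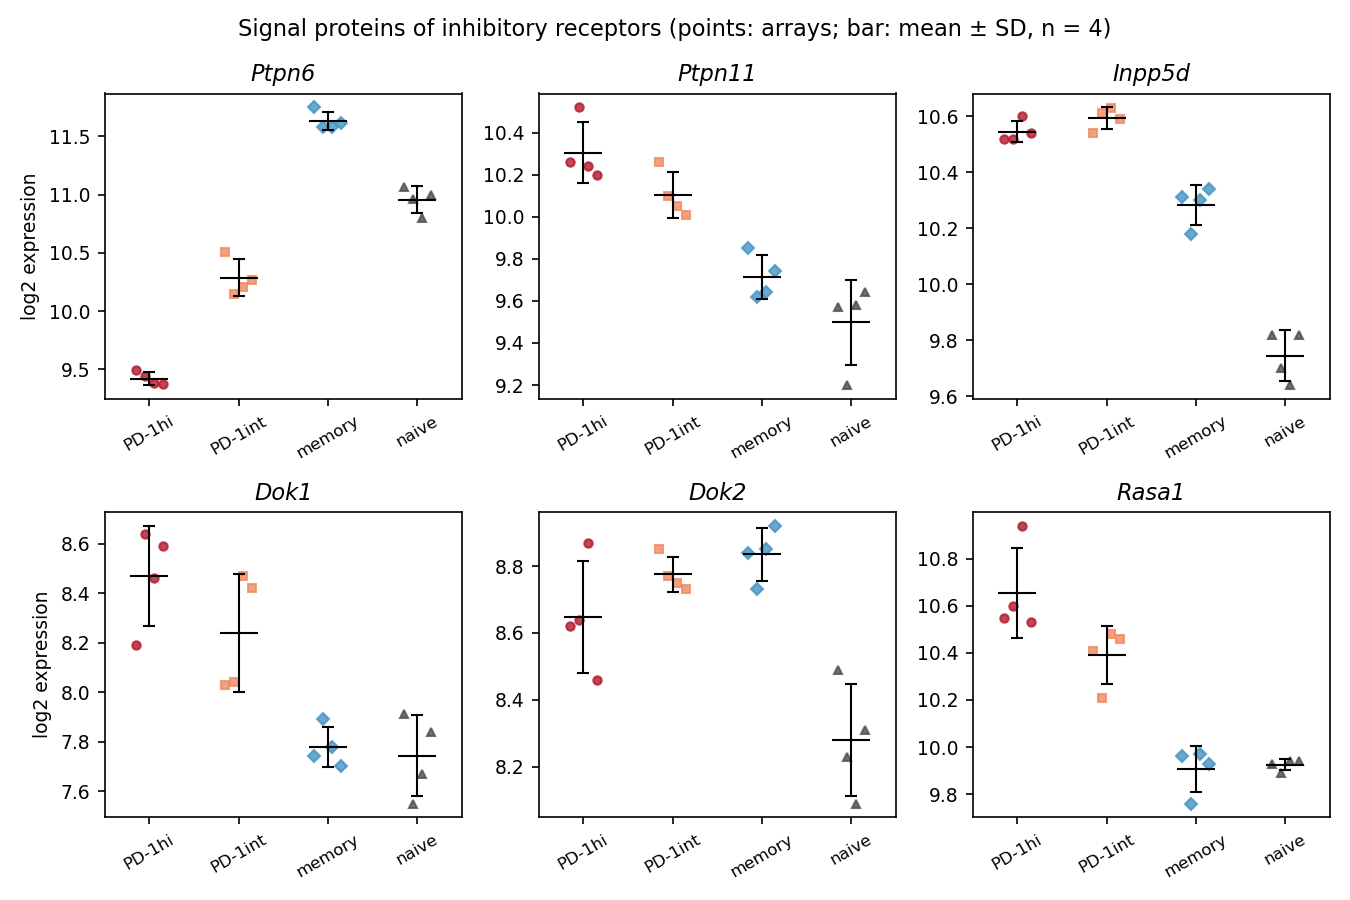
Log2 expression (vertical axes, a scale of its own in each panel) of 6 signal protein genes in PD-1hi, PD-1int, memory and naive cells. Points are arrays, bars mean and SD of 4. Ptpn6 is lowest in PD-1hi and highest in memory, whereas Ptpn11, Inpp5d, Dok1 and Rasa1 are higher in the effectors than in naive cells.

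Binding partners of the 8 proteins and other ligands of the B7 type moved individually. Of 14 partner genes 3 rose and 2 fell in PD-1hi against naive (median -0.03), 3 rose and 1 fell in PD-1int (-0.02), and 1 rose and 1 fell in memory (0.05). All genes gave 13.4% rises and 13.7% falls in PD-1hi, 11.9% and 10.8% in PD-1int, and 6.7% and 5.02% in memory. The 3 that rose were Pdcd1, Cd80 and Itgav in both effector subsets. Pdcd1 encodes the sort marker PD-1, so its rise came with the sort and is not a separate result. Cd80, whose product binds PD-L1 as well as CD28 and CTLA-4, read 7.01, 7.40, 8.80 and 7.48 in PD-1hi, 6.97, 8.89, 7.92 and 8.56 in PD-1int, 5.45, 5.89, 6.05 and 5.87 in memory, and 5.48, 5.72, 5.55 and 5.44 in naive cells. It rose against naive in PD-1hi (2.13 ± 0.35, limma adjusted p = 1.19e-04) and PD-1int (2.54 ± 0.35, limma adjusted p = 2.51e-05), with a wide spread among effector arrays. Itgav, the integrin chain alpha v, rose in PD-1hi (1.23 ± 0.12) and PD-1int (0.87 ± 0.12), while Itgb3, which pairs with it in an integrin bound by mouse LILRB4, fell in both (-0.36 ± 0.11 and -0.64 ± 0.11) and rose in memory (1.04 ± 0.11). The partners proposed for VISTA, Selplg (-0.10 ± 0.07) and Igsf11 (-0.11 ± 0.10), and for TREML2, Cd276 (0.08 ± 0.10), did not pass in PD-1hi against naive.

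Among 15 B7-type and related ligands 2 rose and 2 fell in PD-1hi against naive (median 0.04), 2 rose and 1 fell in PD-1int (-0.02), and 2 fell in memory (0.04). The whole set of genes gave 13.4% rises and 13.7% falls in PD-1hi, 11.9% and 10.8% in PD-1int, and 6.7% and 5.02% in memory. Cd86, the CD28 and CTLA-4 ligand related to Cd80, averaged 7.19 ± 0.57 in PD-1hi, 8.67 ± 0.16 in PD-1int, 6.54 ± 0.66 in memory and 8.61 ± 0.26 in naive cells. It fell in PD-1hi against PD-1int (-1.48 ± 0.28, limma adjusted p = 0.00522) and in memory against naive (-2.07 ± 0.28). Cd48, the ligand of the receptor 2B4, rose in PD-1hi (0.61 ± 0.07) and PD-1int (0.71 ± 0.07). Tnfrsf14, whose product HVEM engages BTLA, fell in all 3 comparisons with naive (PD-1hi: -0.52 ± 0.12). Pdcd1lg2, which encodes the other PD-1 ligand and follows Cd274 on chromosome 19, had 6.40 ± 0.20 in PD-1hi and 6.22 ± 0.10 in naive cells and passed in no comparison.

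Of 30 other measured inhibitory or paired immunoglobulin-like receptors, 2 rose and 3 fell in PD-1hi against naive (median 0.01), 3 rose and 2 fell in PD-1int (-0.01), and 3 rose and 2 fell in memory (-0.02). The shares over all genes were 13.4% higher and 13.7% lower in PD-1hi, 11.9% and 10.8% in PD-1int, and 6.7% and 5.02% in memory. Pecam1, an ITIM-bearing adhesion receptor, averaged 6.98 ± 0.36 in PD-1hi, 8.05 ± 0.37 in PD-1int, 9.62 ± 0.20 in memory and 10.94 ± 0.11 in naive cells. It fell in PD-1hi by -3.96 ± 0.18 against naive (limma adjusted p = 6.58e-12), and by -1.06 ± 0.18 against PD-1int (limma adjusted p = 0.00157). Milr1, an inhibitory receptor first described in mast cells, fell in PD-1hi against naive (-1.91 ± 0.15), PD-1int (-1.39 ± 0.15) and memory (-0.79 ± 0.15). Fcgr2b, the inhibitory Fc receptor, rose in memory (2.05 ± 0.17, limma adjusted p = 1.37e-07), to 8.57 ± 0.19 in memory against 6.52 ± 0.05 in naive cells, and did not pass in PD-1hi (-0.06 ± 0.17) or PD-1int (0.36 ± 0.17) against naive. Pirb, the inhibitory partner in the cluster that holds Lair1, averaged 6.64 ± 0.25 in PD-1hi and 6.65 ± 0.20 in naive cells.

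For each of the 8 genes, the genes most like it were ranked by Pearson r of log2 values over the 16 arrays, which fall into 4 subsets, so that r mostly reflects subset means. Nearest to Lilrb4a was Fasl, the death ligand (r = 0.994), then Chst11 and Chsy1 (both 0.991). Treml2 was closest to Il7r (0.99), the gene of the sort marker CD127, followed by Znrf3 (0.989) and Snhg12 (0.987). Cd101 ranked with Lag3 (0.972), an inhibitory receptor, Batf (0.972) and Samsn1 (0.969). For Cd200r1 these were Neb (0.952), Lrba (0.942) and Sec14l1 (0.936), for Cd200 Ephb6 (0.965), Med30 (0.946) and Gcnt1 (0.942), for Lair1 Pfkp (0.94), Iqgap2 (0.922) and Dipk2a (0.922), and for Vsir Ccm2 (0.953), Rnf167 (0.948) and Ifi214 (0.942).

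Cd274 ran with Gbp10 (0.965) and Gbp4 (0.943), interferon-inducible GTPases, and Thrb (0.939). Gbp10 lay between 10.34 and 10.82 in PD-1hi, between 10.59 and 10.75 in PD-1int and between 10.43 and 10.61 in memory, and read 11.15, 11.95, 12.04 and 11.79 in naive replicates 1 to 4. Gbp4 read 11.83, 12.48, 12.55 and 11.95 in the same naive arrays. Naive replicate 1 was thus the lowest naive array for Cd274, Gbp10 and Gbp4, whereas Ifngr2 was highest there (10.21, against 9.49 to 9.70 in the other naive arrays). Among the 8 genes themselves, r was -0.96 between Cd101 and Treml2, 0.84 between Cd200r1 and Cd200, 0.80 between Vsir and Cd274, and 0.04 between Cd200r1 and Lair1 over the 16 arrays.

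**Figure D5:**
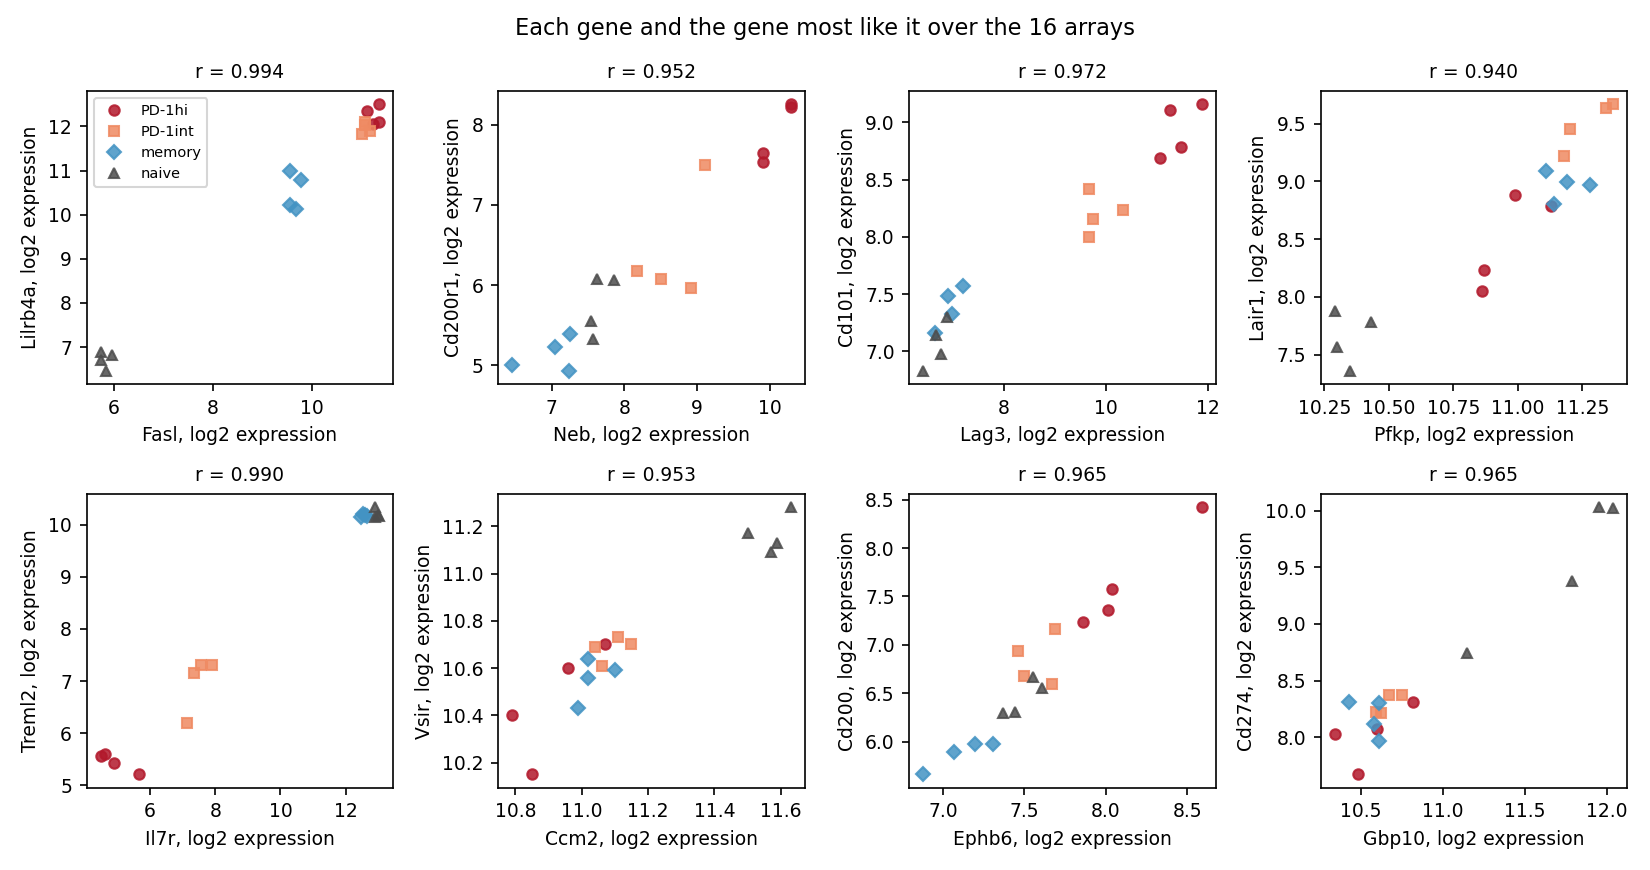
Each of the 8 genes (vertical axis, log2 expression) against the gene with the highest Pearson r over the 16 arrays (horizontal axis, log2 expression), with 1 point per array and a colour and symbol per subset. In the Treml2 panel the effector arrays run down with Il7r; in the Cd274 panel the naive arrays spread along Gbp10, which lies between 11.15 and 12.04 there.

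Since several of the 8 proteins are abundant on myeloid or B cells, markers of these cells are given beside them. The mean log2 value of 19 myeloid and dendritic-cell markers ranged from 6.42 to 6.58 in PD-1hi, 6.64 to 6.71 in PD-1int, 6.20 to 6.29 in memory and 6.07 to 6.22 in naive arrays. Of the 19, 3 rose and 2 fell in PD-1hi against naive, 4 rose and 1 fell in PD-1int, and 1 rose in memory. In PD-1hi this is near the 13.4% and 13.7% of all genes, which gave 11.9% and 10.8% in PD-1int and 6.7% and 5.02% in memory. The markers that rose in PD-1hi were Cd68 (3.05 ± 0.17), Itgax (2.40 ± 0.25) and Itgam (1.03 ± 0.20), which activated T cells also express. These and Cybb (0.64 ± 0.22, limma adjusted p = 0.0424) rose in PD-1int. Cd209a fell in both effector subsets and Ms4a6c in PD-1hi. Against memory, 5 of the 19 rose and 1 fell in PD-1int, where 8.49% of all genes were higher and 7.66% lower. Cybb (0.73 ± 0.22, limma adjusted p = 0.028) and Ms4a6c (0.66 ± 0.18, limma adjusted p = 0.0161) were among these rises. Lyz2 (6.43 ± 0.25 in PD-1hi, 5.93 ± 0.25 in naive), Csf1r (6.58 ± 0.30 and 6.33 ± 0.26), Adgre1 (6.02 ± 0.09 and 5.89 ± 0.29) and S100a8 (3.89 ± 0.09 and 3.86 ± 0.19) did not pass against naive; Lyz2, a macrophage and neutrophil lysozyme gene, passed in PD-1hi against memory (0.53 ± 0.19, limma adjusted p = 0.0492). S100a8, a neutrophil gene, lay below the level under which 10% of genes fall. The part of myeloid cells in the Lilrb4a, Lair1, Cd200r1, Cd101 and Vsir differences was not tested.

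The mean over 15 B-cell and CLL-cell markers ranged from 5.97 to 6.23 in PD-1hi, 6.06 to 6.35 in PD-1int, 6.41 to 6.64 in memory and 6.28 to 6.44 in naive arrays, with 1 rise and 3 falls in both effector subsets against naive and 1 rise in memory. Rises and falls among all genes were 13.4% and 13.7% in PD-1hi, 11.9% and 10.8% in PD-1int, and 6.7% and 5.02% in memory. Ighm fell with Treml2, to 8.95 ± 0.64 in PD-1hi and 9.65 ± 0.55 in PD-1int, against 12.31 ± 0.06 in memory and 12.63 ± 0.05 in naive cells. Cd79b, a chain of the B-cell receptor complex, also fell in PD-1hi (-0.97 ± 0.13, limma adjusted p = 9.23e-06) and PD-1int (-0.72 ± 0.13) against naive, as did Bank1, a B-cell adaptor gene (-0.91 ± 0.19 and -0.83 ± 0.19). Cd22, which encodes an inhibitory B-cell receptor, was the list member that rose, by 3.22 ± 0.12 in memory (limma adjusted p = 2.46e-12), 1.74 ± 0.12 in PD-1int and 0.84 ± 0.12 in PD-1hi. By contrast Ms4a1, the gene for CD20, lay at 5.40 ± 0.18, 5.54 ± 0.43, 5.32 ± 0.17 and 5.35 ± 0.26 in PD-1hi, PD-1int, memory and naive cells, and Cd79a at 6.16 ± 0.30, 6.24 ± 0.28, 6.12 ± 0.29 and 6.32 ± 0.34, and neither passed in any comparison. The part of B cells in the Treml2, Cd200 and Cd274 differences was not tested.

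In PD-1hi against naive (all genes: 13.4% higher, 13.7% lower), 2 of 8 CD4 and regulatory T-cell markers rose and 1 of 6 natural killer and innate-like markers fell. In the same comparison 1 of 4 erythroid and platelet markers rose, and 3 of 6 T-cell identity genes rose while 1 fell. Mean log2 values were 6.97 to 7.13 in PD-1hi and 6.78 to 6.84 in naive for the CD4 list, and 6.42 to 6.59 and 6.37 to 6.55 for the natural killer list. They were 7.05 to 7.49 and 6.63 to 7.16 for the erythroid and platelet list, and 12.30 to 12.47 and 12.13 to 12.18 for the T-cell list. In memory against naive (all genes: 6.7% higher, 5.02% lower), 3 of the 6 natural killer and innate-like markers rose and 1 fell, beside the memory rises of Lilrb4a and Lair1. Those that rose were Klrb1c (1.33 ± 0.19, limma adjusted p = 7.35e-05), Tyrobp (0.91 ± 0.15) and Fcer1g (0.70 ± 0.17), and the list mean of 6.68 to 6.95 in memory lay above all naive arrays. The part of such cells in the Lilrb4a, Lair1, Fcgr2b and Tyrobp differences was not tested.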

How the data were processed

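The 16 arrays, 4 per subset, came as 1 table that the authors deposited, with a log2 value for each probe set; the log2 base was read from the range of the values. Affymetrix Power Tools was used, per the submitters' processing notes; its version is not given in the sources used here, nor is the summarisation method. RNA was labelled with a WT Pico kit for Mouse Gene ST arrays, per the labels' protocols. Of 41345 probe sets, 23521 carry 1 gene symbol, 1814 several and 16010 none in the platform annotation; Entrez identifiers matched 23328 to RefSeq and changed no symbol. The brightest probe set stood for each of 22180 genes, with no filter on dim genes. All arrays were fitted with limma (3.58.1, R 4.3.3; lmFit, a mean per subset, no block, eBayes), with Benjamini-Hochberg adjustment over all genes. The pipeline was tested on simulated data. The number of arrays limits the precision.

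The 8 genes, the gene lists and the tests were chosen with earlier results of these data known. Named are the 8 genes, up to 4 members of a list with the smallest adjusted p in a comparison, the 3 most alike genes (without small RNAs, antigen receptor segments or predicted loci), and sort genes. Other named genes, such as list members that did not pass and chromosomal neighbours, were chosen after their values were seen. Alternatives were a replicate block, only the 8 arrays compared, no dim genes, the mean of probe sets, quantile and median scaling, eBayes trend and robust, array weights, each array left out and, added after seeing the data, the shared Lilrb4a probe set.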

Additional observations from a re-analysis of the deposited data

Results flagged for a closer look

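In 32 sets of 4 arrays (8 genes in 4 subsets), 2 held an array whose gap to its nearest neighbour was large for the range of the set by Dixon's criterion; chance gives about 1 in 20. In PD-1int, Cd200r1 read 7.50 in replicate 4, against 5.97 to 6.18 in the other 3 arrays. Pdcd1 was 10.32 in that array, within the PD-1int range of 9.75 to 10.42. Also in PD-1int, Treml2 read 6.20 in replicate 3, against 7.16 to 7.30 in the others, and Il7r had its lowest PD-1int value there, 7.14. Without that array, Treml2 in PD-1hi against PD-1int was -1.80.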

How the results depend on the processing

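Of 1152 log2 differences of the 8 genes recomputed with other settings or without 1 array, 1120 kept their direction and their side of the threshold, 23 lost a call, 7 gained one and 2 changed sign. The sign changes concerned differences near 0: Treml2 in memory against naive was 0.019 without naive replicate 2 and otherwise as low as -0.045 with 1 array left out, and Vsir in PD-1hi against memory was 0.013 without PD-1hi replicate 1 and otherwise as low as -0.173. All 23 lost calls were those of Cd200 in PD-1hi against PD-1int and of Lair1 against memory; Lair1 in PD-1hi against memory was also lost with median centring (limma adjusted p = 0.055) and with its 8 arrays alone (0.0746). Cd200 in memory against naive passed with array weights (limma adjusted p = 0.0455), its 8 arrays alone (0.00498) and no dim genes (0.0443). Leaving out 1 array at a time gave 470 to 751 changed genes for PD-1hi against PD-1int, and the number of the 8 genes that changed stayed within 1 of the main count in each comparison. Whether same-numbered arrays are paired is not settled. Their deviations from subset means correlated weakly (-0.0478 to 0.151 over 24 pairs, median 0.035, against -0.01 over 72 other pairs), 2 of the 24 exceeded 0.1, and 10 of 16 arrays correlated best with an array of their own number, more than the 4 that even odds among the 12 arrays of other subsets would give. With a replicate block, 748 genes changed in PD-1hi against PD-1int and 6027 in PD-1hi against naive, and 5 and 8 of the 8 genes did; the block left the number of these genes that changed as it was in all 6 comparisons. Dim probe sets, such as Cd200r1 in memory, limit what can be seen, since no background level is given.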
